A study of Mus musculus with 18 samples.

Results

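The 8 cadherins Cdh4, Cdh6, Cdh7, Cdh8, Cdh10, Cdh11, Cdh12 and Cdh13 were chosen by symbol from the 55416 genes of the count table. They were chosen with earlier results of these data known. Each symbol stood on 1 row, and all 8 passed the filter on low counts that left 29355 genes for testing. Of the 8, Cdh6, Cdh7, Cdh8, Cdh10, Cdh11 and Cdh12 are type II classical cadherins. Cdh4 (R-cadherin) is a type I classical cadherin, and Cdh13 (T-cadherin) is an atypical one, so the set is type II cadherins with a pair of relatives. The study asked how EPIREGULIN, a secreted ligand of the EGF receptor family, acts on the progenitors of the mouse neocortex. Neocortex of wild-type C57BL/6J embryos at E14.5 was used, and hemispheres turned in culture (HERO) for 24 h with 50 ng/mL of recombinant human EPIREGULIN (Epi) or with none (Ctl). Neurons (N), intermediate progenitors (IP), which arise from radial glia, and radial glia (RG) themselves were then isolated, by a method that the sources used here do not describe. This gave 6 groups of 3 libraries: Epi RG, Ctl RG, Epi IP, Ctl IP, Epi N and Ctl N. All groups were cultured explants of 1 strain and 1 age, so no uncultured tissue was measured, and the labels do not say whether the hemispheres of several embryos were pooled.

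Cadherins are calcium-dependent adhesion proteins whose outer domains bind those of cadherins on neighbouring cells. Classical cadherins carry a cytoplasmic tail that binds catenins and so links the contact to actin, while T-cadherin is held in the membrane by a lipid anchor and has no such tail. In the embryonic cortex, radial glia are joined by adherens junctions at the ventricular surface, newborn cells leave these junctions as they delaminate, and type II cadherins are known for patterns that mark areas, layers and nuclei of the brain.

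The 18 libraries held 15.5 to 34.2 M counts each, and levels are given as counts scaled to a common library total (CPM). Radial glia markers (13 genes) summed to 5936 CPM in Epi RG and 5679 CPM in Ctl RG, against 422 and 454 CPM in Epi IP and Ctl IP and 295 and 297 CPM in Epi N and Ctl N. For the 10 neuron markers the sums were 337 and 331 CPM in Epi RG and Ctl RG, 9533 and 9486 CPM in Epi IP and Ctl IP, and 9362 and 9189 CPM in Epi N and Ctl N. Of these 10, 2 were called higher and 3 lower in N than in IP in both cultures, so their sum hides changes of both signs. By that sum, the IP libraries held as much neuron-marker RNA as the N libraries. They also held more RNA of Cajal-Retzius cells, early neurons of the marginal zone, whose 7 markers summed to 335 and 303 CPM in Epi IP and Ctl IP, 46.9 and 47.1 CPM in Epi N and Ctl N, and 12.8 and 13.8 CPM in Epi RG and Ctl RG. The 8 intermediate progenitor markers summed to 543 and 566 CPM in Epi IP and Ctl IP, 483 and 462 CPM in Epi N and Ctl N, and 364 and 353 CPM in Epi RG and Ctl RG. Of these 8, 6 were called lower and 1 higher in N than in IP in both cultures, so their sum hides changes of both signs. Eomes, a T-box factor that defines intermediate progenitors, stood at 9.03 and 10.02 CPM in Epi N and Ctl N, against 123 and 122 CPM in Epi IP and Ctl IP. Insm1, a zinc finger factor of newborn progenitors and neurons, stood at 289 and 274 CPM in Epi N and Ctl N, against 82.0 and 93.0 CPM in Epi IP and Ctl IP. Markers of subplate neurons (6 genes) summed to 198 and 202 CPM in Epi IP and Ctl IP, 129 and 141 CPM in Epi N and Ctl N, and 105 and 111 CPM in Epi RG and Ctl RG. Markers of meningeal and endothelial cells summed to at most 20.9 and 11.02 CPM in any group mean. The 5 erythroid markers summed to 73.1 and 110.1 CPM in Epi N and Ctl N, 41.2 and 43.8 CPM in Epi IP and Ctl IP, and 25.2 and 31.4 CPM in Epi RG and Ctl RG, and of the 4 that were tested, 3 were called higher in Epi N than in Epi RG and 4 in Ctl N than in Ctl RG. No marker of these lists was at 0 in all libraries of a group. The part of other cell types in the cadherin results below was not tested. In such bulk libraries fewer cells of a type and less RNA per cell cannot be told apart. The p-values rest on the spread between libraries of the same group, estimated jointly over all 6 groups. The labels call the 3 libraries of a group biological replicates.

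Among the 8 cadherins, the leading one differed between the populations once levels were set per kilobase of exon (CPM per kb). In RG, Cdh4 led with 17.9 ± 0.753 CPM per kb in Epi and 17.7 ± 1.39 CPM per kb in Ctl cultures (SD, n = 3 each). It made up 69.0% ± 3.86 and 68.6% ± 1.05 of the summed level of the 8 genes there. Cdh6 came next, with 5.30 ± 1.22 CPM per kb in Epi RG and 5.22 ± 0.790 CPM per kb in Ctl RG. Every other member of the 8 averaged at most 1.06 CPM per kb. Cdh2, which is not one of the 8, was not put on this scale. It held 225.2 and 233.3 CPM in Epi RG and Ctl RG, where Cdh4 held 130.5 and 129.1 CPM. In IP, Cdh13 led with 85.6 ± 2.86 CPM per kb in Epi and 87.4 ± 9.94 CPM per kb in Ctl cultures, or 76.9% ± 1.46 and 77.2% ± 1.59 of the 8. Cdh4 stood at 11.2 ± 2.35 and 11.02 ± 0.690 CPM per kb in Epi IP and Ctl IP, and Cdh11 at 5.04 ± 0.113 and 5.07 ± 0.451. In N, Cdh13 stood at 27.6 ± 2.63 CPM per kb in Epi and 25.5 ± 4.66 CPM per kb in Ctl cultures. Cdh4 stood close to it, at 22.7 ± 4.97 CPM per kb in Epi N and 21.6 ± 4.17 CPM per kb in Ctl N, and the libraries of these 2 genes overlapped in both groups. Cdh12 was the next in N, at 3.48 ± 0.166 and 3.19 ± 0.384 CPM per kb in Epi N and Ctl N. The summed level of the 8 genes was 26.0 ± 0.419 and 25.9 ± 2.44 CPM per kb in Epi RG and Ctl RG, 111 ± 4.14 and 113 ± 10.6 in Epi IP and Ctl IP, and 61.9 ± 6.66 and 58.5 ± 8.72 in Epi N and Ctl N.

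**Figure D1:**
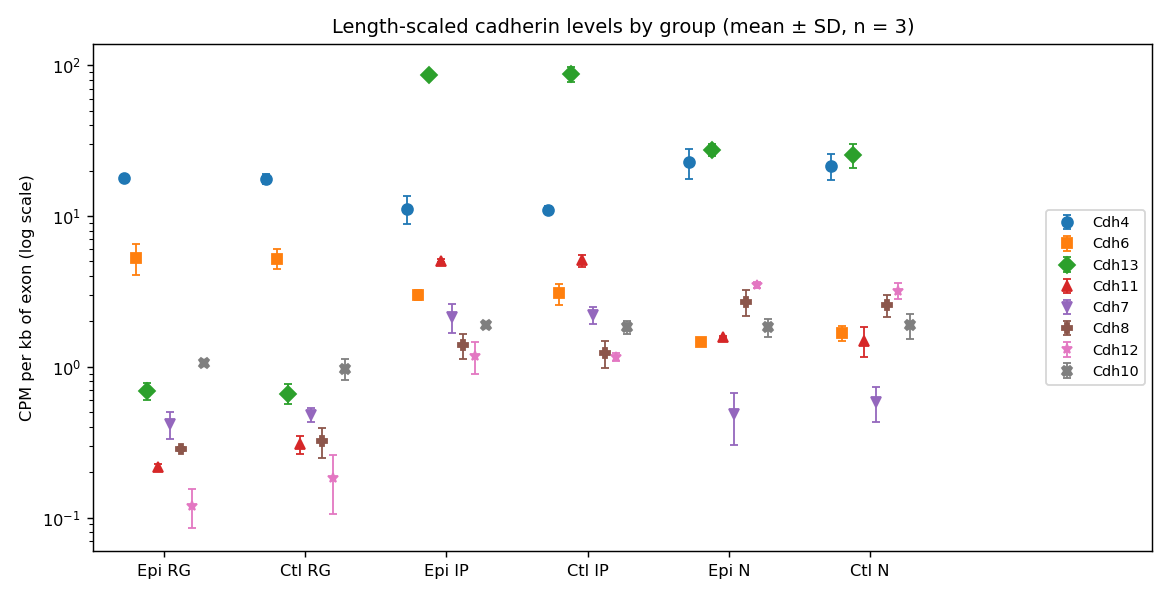
Level of the 8 cadherins per kilobase of exon (CPM per kb, log axis) in the 6 groups, with symbols for means and bars for SD over 3 libraries. Cdh4 is the highest symbol in RG, Cdh13 in IP, and both stand together at the top in N.

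The order below these leaders was partly unresolved. Of the 7 neighbouring pairs in the order of each group, the libraries overlapped for 0 in Epi RG, 2 in Ctl RG, 2 in Epi IP, 2 in Ctl IP, 2 in Epi N and 4 in Ctl N. In IP of both cultures the unresolved pairs were Cdh7 with Cdh10 and Cdh8 with Cdh12. In Ctl RG they were Cdh8 with Cdh11 and Cdh11 with Cdh12, which all averaged at most 0.321 CPM per kb. In Ctl N, besides Cdh13 with Cdh4, they were Cdh12 with Cdh8, Cdh10 with Cdh6, and Cdh6 with Cdh11. In Epi N, besides Cdh13 with Cdh4, Cdh10 overlapped Cdh11.

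The cadherins differed between populations far more than between treatments. Between Epi IP and Epi RG, edgeR's quasi-likelihood test with Benjamini-Hochberg adjustment over all genes called all 8 at an adjusted p under 0.05, with 6 higher and 2 lower in IP, where 42.7% of all genes tested were called, 23.2% higher and 19.6% lower. Between Ctl IP and Ctl RG it also called 8, again 6 higher and 2 lower, where 41.3% of all genes were called, 22.7% higher and 18.6% lower. The median log2 fold change of the 8 was 2.32 in Epi and 2.09 in Ctl cultures, beside -0.07 and -0.06 over all genes tested. Between Epi N and Epi IP, 7 were called, 3 higher and 4 lower in N, where 11% of all genes were called, 2.8% higher and 8.16% lower. Between Ctl N and Ctl IP, 7 were called in the same split, where 10.3% of all genes were called, 2.6% higher and 7.74% lower. Between Epi N and Epi RG, 6 were called, 5 higher and 1 lower in N, where 39.7% of all genes were called, 21.4% higher and 18.3% lower. Between Ctl N and Ctl RG, 6 were called in the same split, where 38.7% of all genes were called, 21% higher and 17.7% lower. Each pair of these comparisons within a culture shares a group of libraries, so they are not independent of each other. The 8 were also chosen with earlier results of these data known, so these counts are no test of the cadherin family. The libraries of the compared groups did not overlap for 8 cadherins between IP and RG in both cultures, where this held for 52.3% of all genes in Epi and 46.6% in Ctl cultures. Between N and IP they did not overlap for 7 in both cultures (27.8% of all genes in Epi, 22.5% in Ctl), and between N and RG for 7 in Epi cultures (48.3% of all genes) and 6 in Ctl cultures (46.7%).

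With a block for the replicate number, the 7 cadherins called between N and IP stayed 7, while the number of genes called was 4917 in Epi cultures, against 3216 without the block, and 4652 in Ctl cultures, against 3035 without it. Of the 3216 genes called between Epi N and Epi IP, 822 were higher in N, and upper-quartile scaling called 3431 with 1477 higher. Of the 3035 genes called between Ctl N and Ctl IP, 762 were higher in N, and upper-quartile scaling called 3118 with 1157 higher. Between Epi IP and Epi RG, that scaling called 12717 genes with 6098 higher in IP, in place of 12540 with 6797 higher, and between Ctl IP and Ctl RG it called 12304 with 5907 higher, in place of 12122 with 6666 higher. It also moved the median over all genes to -0.18 for Epi IP against Epi RG and for Ctl IP against Ctl RG, and to 0.14 for Epi N against Epi IP, and it ended or turned none of the cadherin calls.

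**Figure D2:**
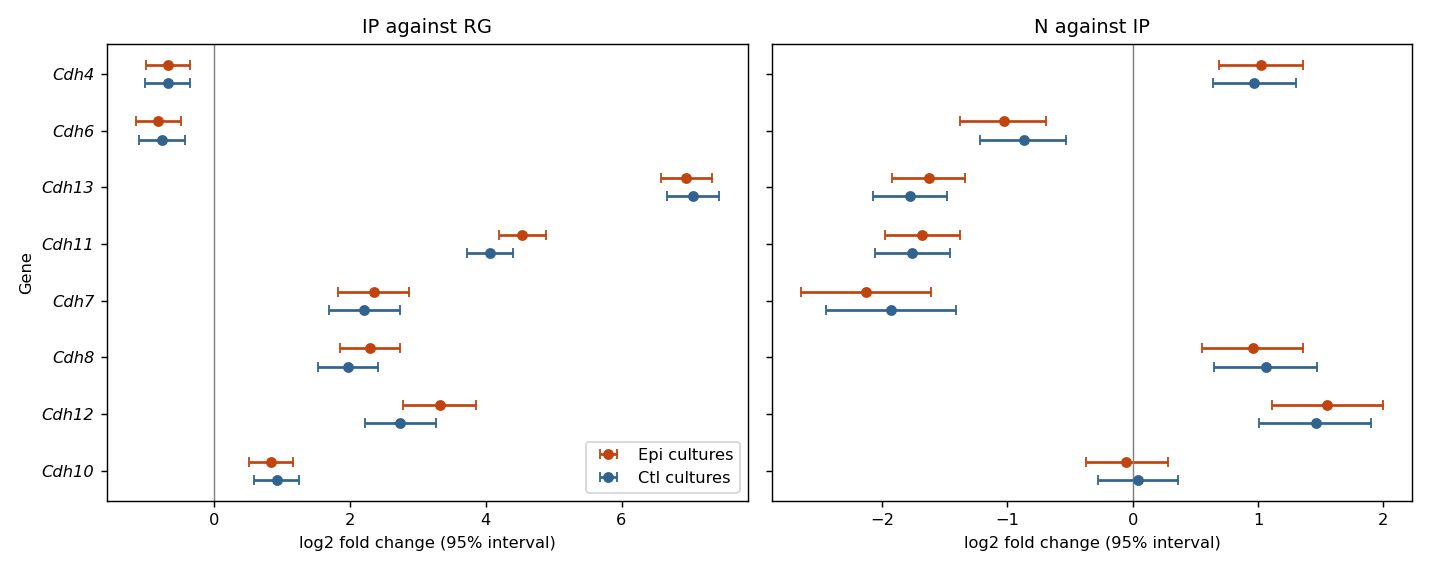
Log2 fold change of each cadherin (points) with its 95% interval (bars) between IP and RG on the left and between N and IP on the right, in Epi and Ctl cultures. Cdh13 and Cdh11 lie farthest right in the IP against RG panel and left of 0 in the N against IP panel, while Cdh8 and Cdh12 lie right of 0 in both.

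Cdh4 encodes R-cadherin, which can pair with N-cadherin as well as with itself. It lies on chromosome 2 of GRCm39 (ENSMUSG00000000305, 179084224 to 179541166, plus strand). Its 3 libraries held 130.5, 125 and 136 CPM in Epi RG and 123, 141 and 124 CPM in Ctl RG. They held 99.1, 65.0 and 79.7 CPM in Epi IP and 85.3, 80.1 and 75.3 CPM in Ctl IP. They held 206, 153 and 137 CPM in Epi N and 192, 145 and 135 CPM in Ctl N. The IP libraries were the lowest and overlapped neither RG nor N, and replicate 1 was the highest N library in both cultures. Cdh4 fell by 0.68 ± 0.16 on the log2 scale in Epi IP against Epi RG (edgeR adjusted p = 0.0012) and by 0.68 ± 0.16 in Ctl IP against Ctl RG (edgeR adjusted p = 0.00122). It was 2.03 times as high in Epi N as in Epi IP and 1.96 times as high in Ctl N as in Ctl IP, both called. Against RG, Cdh4 was not called in N, with a log2 fold change of 0.34 ± 0.16 in Epi cultures (edgeR adjusted p = 0.096) and 0.28 ± 0.16 in Ctl cultures (edgeR adjusted p = 0.177). With a block for the replicate number, the Epi value of 0.32 passed (edgeR adjusted p = 0.0333). It also passed without Epi N replicate 3, at 0.46 (edgeR adjusted p = 0.0365), and was 0.15 without Epi N replicate 1 (edgeR adjusted p = 0.534).

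Cdh6, a type II cadherin known from kidney and from regional boundaries of the embryonic forebrain, fell at each step. It lies on chromosome 15 (ENSMUSG00000039385, 13028787 to 13173761, minus strand). Its libraries held 56.2, 65.2 and 40.7 CPM in Epi RG, and 50.3, 62.3 and 47.1 CPM in Ctl RG. They held 32.8, 30.5 and 28.5 CPM in Epi IP, and 34.2, 34.1 and 25.5 CPM in Ctl IP. They held 15.5, 14.1 and 15.3 CPM in Epi N, and 18.3, 18.2 and 14.8 CPM in Ctl N. No library of one population overlapped another within a culture. Cdh6 fell by 0.82 ± 0.16 on the log2 scale in Epi IP against Epi RG (edgeR adjusted p = 0.000205), and by 0.77 ± 0.16 in Ctl IP against Ctl RG (edgeR adjusted p = 0.000444). It fell by a further 1.03 ± 0.17 in Epi N against Epi IP (edgeR adjusted p = 0.00011), and by 0.87 ± 0.17 in Ctl N against Ctl IP (edgeR adjusted p = 0.000727). It was the only one of the 8 cadherins that was lower in N than in RG by this test, at -1.85 ± 0.17 in Epi and -1.64 ± 0.17 in Ctl cultures.

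**Figure D3:**
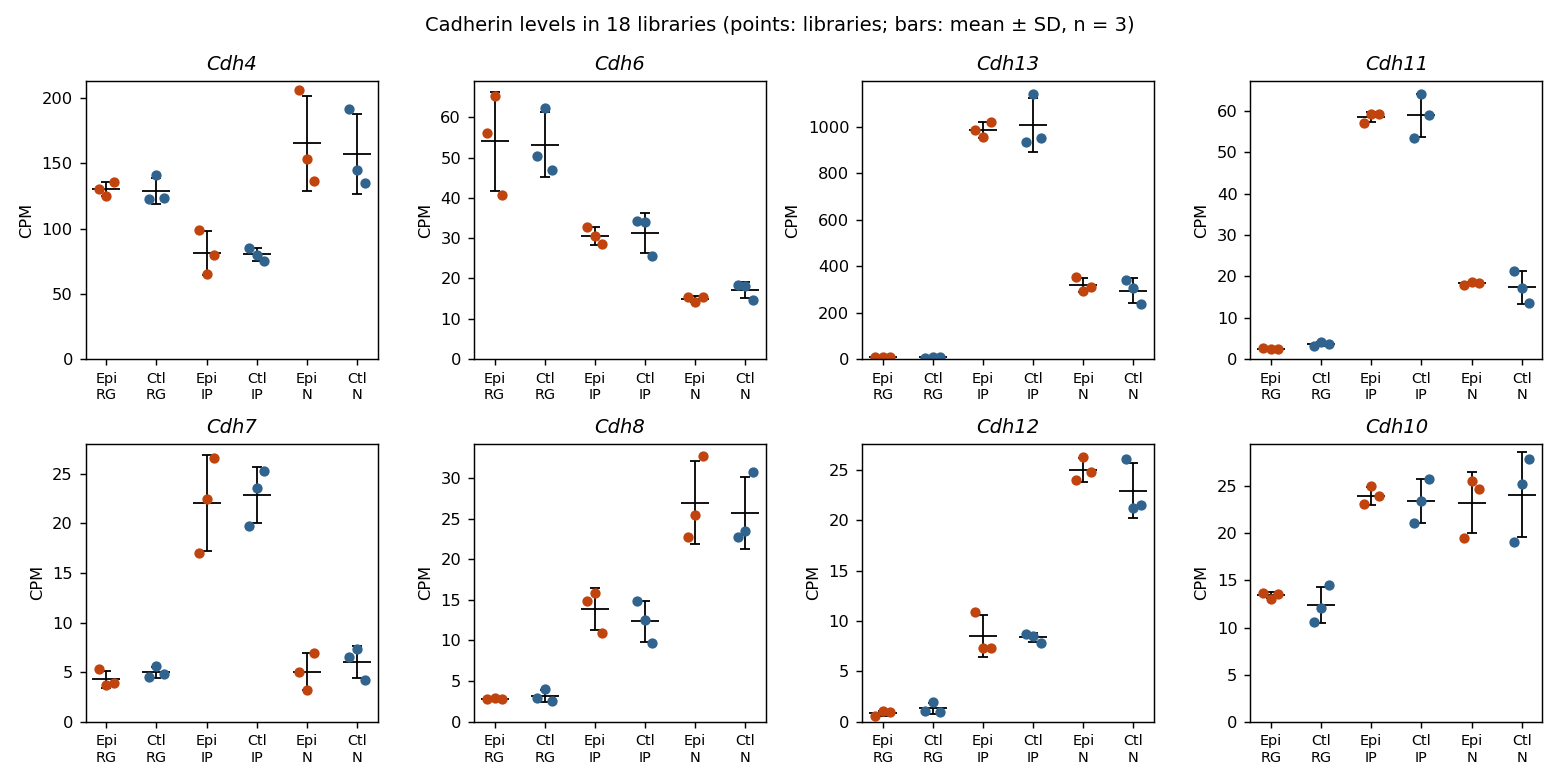
CPM of each cadherin in the 18 libraries (points, Epi in orange and Ctl in blue) with the mean and SD of each group (bars), on linear axes that start at 0. Cdh6 steps down through RG, IP and N, Cdh13, Cdh11 and Cdh7 are highest in IP, and Cdh8 and Cdh12 are highest in N.

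Cdh13, Cdh11 and Cdh7 were highest in IP. Cdh13, the lipid-anchored T-cadherin and a receptor for adiponectin, lies on chromosome 8 (ENSMUSG00000031841, 119010472 to 120051660, plus strand). It held 7.88, 6.95 and 8.99 CPM in Epi RG, and 6.33, 8.49 and 8.18 CPM in Ctl RG. It held 985, 956 and 1021 CPM in Epi IP, and 934, 1141 and 951 CPM in Ctl IP. It held 353, 295 and 309 CPM in Epi N, and 342, 305 and 236 CPM in Ctl N. All IP libraries stood above all N libraries, all N libraries far above all RG libraries, and no population overlapped another. Cdh13 was 124 times as high in Epi IP as in Epi RG, a log2 fold change of 6.95 ± 0.18 (edgeR adjusted p = 1e-17), and 132 times as high in Ctl IP as in Ctl RG, at 7.05 ± 0.18 (edgeR adjusted p = 8.71e-18). Ranked by log2 fold change from the highest, it was gene 21 of 29355 in Epi cultures and gene 19 in Ctl cultures. In N against IP it fell by 1.63 ± 0.14 in Epi cultures (edgeR adjusted p = 3.44e-08) and by 1.78 ± 0.14 in Ctl cultures (edgeR adjusted p = 1.46e-08). It was still 40.0-fold higher in Epi N than in Epi RG and 38.6-fold higher in Ctl N than in Ctl RG.

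Cdh11 encodes OB-cadherin, first known from osteoblasts and mesenchyme, and lies on chromosome 8 (ENSMUSG00000031673, 103358727 to 103512274, minus strand). It held 2.66, 2.40 and 2.47 CPM in Epi RG, and 3.05, 4.02 and 3.65 CPM in Ctl RG. It held 57.0, 59.2 and 59.3 CPM in Epi IP, and 53.6, 64.0 and 59.1 CPM in Ctl IP. It held 18.02, 18.6 and 18.3 CPM in Epi N, and 21.3, 17.2 and 13.5 CPM in Ctl N. All IP libraries lay above all N libraries, and all N libraries above all RG libraries. Cdh11 was 23.2 times as high in Epi IP as in Epi RG (log2 fold change 4.54 ± 0.17, edgeR adjusted p = 1.51e-15), and 16.7 times as high in Ctl IP as in Ctl RG (4.06 ± 0.16, edgeR adjusted p = 6.18e-15). It fell by 1.68 ± 0.14 in Epi N against Epi IP (edgeR adjusted p = 3.44e-08), and by 1.76 ± 0.15 in Ctl N against Ctl IP (edgeR adjusted p = 2.35e-08). It was still higher in N than in RG, at 2.86 ± 0.16 in Epi and 2.29 ± 0.16 in Ctl cultures.

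Cdh7, a type II cadherin described in motor neurons and neural crest of the chick, lies on chromosome 1 (ENSMUSG00000026312, 109910161 to 110067887, plus strand). It held 5.27, 3.65 and 3.95 CPM in Epi RG, and 4.51, 5.59 and 4.84 CPM in Ctl RG. It held 16.98, 22.5 and 26.6 CPM in Epi IP, and 19.7, 23.6 and 25.3 CPM in Ctl IP. It held 4.98, 3.18 and 6.97 CPM in Epi N, and 6.50, 7.32 and 4.24 CPM in Ctl N. All IP libraries stood above the others, and the N and RG libraries overlapped. Cdh7 was 5.10 times as high in Epi IP as in Epi RG (log2 fold change 2.35 ± 0.25, edgeR adjusted p = 5.19e-08), and 4.62 times as high in Ctl IP as in Ctl RG (2.21 ± 0.25, edgeR adjusted p = 1.39e-07). In N against IP it fell by 2.13 ± 0.25 in Epi cultures (edgeR adjusted p = 2.26e-06), and by 1.93 ± 0.25 in Ctl cultures (edgeR adjusted p = 7.81e-06). N against RG was not called, at 0.22 ± 0.25 in Epi and 0.28 ± 0.25 in Ctl cultures, with 95% intervals of -0.31 to 0.75 and -0.25 to 0.80. The Cajal-Retzius and subplate marker sums were also highest in IP, as given above, and their part in the IP levels of these 3 cadherins was not tested.

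Cdh8 and Cdh12 were lowest in RG and highest in N. Cdh8, a type II cadherin known for its patches in rostral cortex and in limbic circuits, lies on chromosome 8 (ENSMUSG00000036510, 99751103 to 100143103, minus strand). It held 2.77, 2.95 and 2.79 CPM in Epi RG, and 2.97, 4.02 and 2.61 CPM in Ctl RG. It held 14.8, 15.9 and 10.9 CPM in Epi IP, and 14.8, 12.5 and 9.73 CPM in Ctl IP. It held 22.8, 25.4 and 32.7 CPM in Epi N, and 22.7, 23.5 and 30.7 CPM in Ctl N. The populations did not overlap, and replicate 3 was the lowest IP library and the highest N library in both cultures. Cdh8 was 4.88 times as high in Epi IP as in Epi RG (log2 fold change 2.29 ± 0.21, edgeR adjusted p = 6.03e-09), and 3.92 times as high in Ctl IP as in Ctl RG (1.97 ± 0.21, edgeR adjusted p = 7.01e-08). It rose again by 0.96 ± 0.19 in Epi N against Epi IP (edgeR adjusted p = 0.00141), and by 1.06 ± 0.20 in Ctl N against Ctl IP (edgeR adjusted p = 0.00061). Interneuron markers (10 genes) also followed the replicate numbers in N, with sums of 106, 186 and 18.3 CPM in Epi N and 56.3, 193 and 14.6 CPM in Ctl N. In IP replicate 3 was the highest instead, with 169.1, 141.8 and 235.0 CPM in Epi IP and 136.9, 137.3 and 253.9 CPM in Ctl IP. The part of interneuron markers in the spread of Cdh8 was not tested.

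Cdh12, also called brain cadherin or N-cadherin 2, lies on chromosome 15 (ENSMUSG00000040452, 20449351 to 21589619, plus strand). It held 0.577, 1.02 and 0.996 CPM in Epi RG, and 1.07, 1.96 and 0.920 CPM in Ctl RG, on 21 to 44 counts a library. It held 10.9, 7.31 and 7.28 CPM in Epi IP, and 8.73, 8.53 and 7.84 CPM in Ctl IP. It held 24.0, 26.3 and 24.8 CPM in Epi N, and 26.1, 21.2 and 21.5 CPM in Ctl N. The 3 populations were again apart in every library. Cdh12 was 9.95 times as high in Epi IP as in Epi RG (log2 fold change 3.32 ± 0.26, edgeR adjusted p = 2.87e-10), and 6.68 times as high in Ctl IP as in Ctl RG (2.74 ± 0.25, edgeR adjusted p = 4.28e-09). It rose by 1.55 ± 0.21 in Epi N against Epi IP (edgeR adjusted p = 1.57e-05), and by 1.46 ± 0.21 in Ctl N against Ctl IP (edgeR adjusted p = 4.15e-05). Against RG it was 29.2-fold higher in Epi N and 18.3-fold higher in Ctl N.

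Promoter windows of Cdh8 and Cdh12, which rose together, and of Cdh6, which fell where they rose, are shown to set the letters near their starts side by side. Each window runs from 250 bases before to 50 bases after an annotated start, from RefSeq on GRCm38.p6, which is not the build of the gene positions above. The Cdh8 window is chr8:99416422-99416721 (minus strand), that of Cdh12 chr15:21111202-21111501 (plus strand) and that of Cdh6 chr15:13173626-13173925 (minus strand). Each of the 3 windows matched GRCm39 exactly at 1 place. The Cdh12 window is not at the outermost start of the gene: its start site lay 662 kb inside the gene span given above, in a stretch where the 7 coding transcripts of GENCODE vM39 also start, within 2 kb. The start sites of the Cdh8 and Cdh6 windows were the outermost starts of these genes. The sequences are written 5′ to 3′ along the gene, and capitals mark each match to CANNTG, the E-box core bound by basic helix-loop-helix factors such as the Neurog and Neurod families.
Cdh8: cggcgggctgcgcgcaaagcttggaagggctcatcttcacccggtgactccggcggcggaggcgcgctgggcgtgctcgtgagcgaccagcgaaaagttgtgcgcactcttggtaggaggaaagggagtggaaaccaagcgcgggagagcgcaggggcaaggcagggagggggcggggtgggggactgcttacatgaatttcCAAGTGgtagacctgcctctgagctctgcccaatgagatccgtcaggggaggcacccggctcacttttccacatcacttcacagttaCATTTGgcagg
Cdh12: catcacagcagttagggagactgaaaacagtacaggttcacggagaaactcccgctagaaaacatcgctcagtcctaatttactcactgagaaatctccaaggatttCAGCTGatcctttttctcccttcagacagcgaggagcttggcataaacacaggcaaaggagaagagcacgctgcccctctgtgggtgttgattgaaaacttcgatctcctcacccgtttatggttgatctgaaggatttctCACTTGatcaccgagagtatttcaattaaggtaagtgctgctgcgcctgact
Cdh6: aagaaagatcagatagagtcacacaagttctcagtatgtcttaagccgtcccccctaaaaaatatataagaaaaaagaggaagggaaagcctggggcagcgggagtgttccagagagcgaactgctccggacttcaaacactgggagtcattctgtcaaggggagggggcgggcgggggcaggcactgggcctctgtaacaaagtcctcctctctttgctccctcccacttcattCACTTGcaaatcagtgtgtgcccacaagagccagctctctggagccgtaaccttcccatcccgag
CANNTG, which reads the same on both strands, was found 2 times in the Cdh8 window, 2 times in that of Cdh12 and 1 time in that of Cdh6. It was present in 72.3% of the 32851 RefSeq promoter windows of the same length. The Cdh12 window held CAGCTG, a form of CANNTG present in 16.3% of all windows, and the other 2 windows held none. GGTGTGA, a core of T-box factor sites searched on both strands, was in none of the 3 and in 3.98% of all windows, and CAGATG, another form of CANNTG, was in none of the 3 and in 17.2% of all windows. The 7 windows of the table also include 3 of Cdh7 and 1 of Cdh10. One of the 3 Cdh7 windows held GGTGTGA and CAGATG 1 time each, and the Cdh10 window held CANNTG 5 times, the most of the 7. These matches describe letters only and are no evidence of binding. Of the 8 cadherins, 5 (Cdh6, Cdh7, Cdh8, Cdh10 and Cdh12) had an entry in the promoter table, and Cdh4, Cdh11 and Cdh13 had none.

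Cdh10, a type II cadherin of the brain, lies on chromosome 15 (ENSMUSG00000022321, 18819033 to 19014322, plus strand) and showed the smallest change between N and IP. It held 13.7, 13.0 and 13.5 CPM in Epi RG, and 10.6, 12.1 and 14.47 CPM in Ctl RG. It held 23.1, 24.99 and 23.9 CPM in Epi IP, and 21.1, 23.4 and 25.8 CPM in Ctl IP. It held 19.5, 25.6 and 24.7 CPM in Epi N, and 19.1, 25.2 and 27.9 CPM in Ctl N. The RG libraries were lower than all others, and the N and IP libraries overlapped. Cdh10 was 1.79 times as high in Epi IP as in Epi RG (log2 fold change 0.84 ± 0.16, edgeR adjusted p = 0.000116), and 1.89 times as high in Ctl IP as in Ctl RG (0.92 ± 0.16, edgeR adjusted p = 4.46e-05). The N against IP value was -0.05 ± 0.15 in Epi cultures (95% interval -0.37 to 0.28), and 0.04 ± 0.16 in Ctl cultures (95% interval -0.28 to 0.36), and neither was called.

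EPIREGULIN changed no cadherin past the threshold in any population. Between Epi and Ctl, edgeR called 0 of the 8 in RG, 0 in IP and 0 in N, where 0.0% of all genes tested were called in each. At an unadjusted p under 0.05, 1 of the 8 stood out in RG, 0 in IP and 0 in N, beside 478, 535 and 752 of the 29355 genes tested. DESeq2 also called 0 cadherins and 0 genes in each population. A block for the replicate number in edgeR, shared or separate for each population, gave 0 cadherins and 0 genes in each as well. The SE, intervals and unadjusted p-values of this section come from the fit without such a block. The log2 fold changes of the 8 lay between -0.55 and 0.12 in RG, between -0.05 and 0.17 in IP, and between -0.26 and 0.12 in N, with medians of -0.06, 0.00 and 0.07 beside 0.01 over all genes tested in each. Their 95% intervals reached at most 0.44 and at least -1.14 in RG, 0.58 and -0.54 in IP, and 0.55 and -0.79 in N, so an effect as large as the IP against RG differences of Cdh13, Cdh11, Cdh7, Cdh8 and Cdh12 lay outside these intervals. The mean of the 3 populations was likewise called for 0 cadherins and 0 genes by edgeR and by DESeq2, with 0 cadherins and 841 genes at an unadjusted p under 0.05.

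The lowest p was that of Cdh11 in RG, whose libraries held 2.66, 2.40 and 2.47 CPM in Epi RG against 3.05, 4.02 and 3.65 CPM in Ctl RG. All Epi RG libraries were below all Ctl RG libraries, the only such case among the 8, and for 5.42% of all genes tested the Epi RG and Ctl RG libraries did not overlap in one direction or the other. In IP and in N the Epi and Ctl libraries overlapped for every one of the 8, while they did not overlap for 5.33% and 6.86% of all genes. The log2 fold change was -0.49 ± 0.17 (95% interval -0.84 to -0.14, edgeR unadjusted p = 0.00867, adjusted p = 1), on 61 to 125 counts a library. In IP the Cdh11 difference was -0.01 ± 0.14, and in N it was 0.08 ± 0.14. The test of the difference itself gave 0.48 ± 0.22 for IP minus RG (edgeR unadjusted p = 0.0393, adjusted p = 1), and 0.57 ± 0.22 for N minus RG (edgeR unadjusted p = 0.0186, adjusted p = 1). In each of the 3 tests of differences between populations, edgeR and DESeq2 called 0 cadherins and 0 genes, with 442 genes at an unadjusted p under 0.05 for IP minus RG, 478 for N minus RG and 512 for N minus IP. Cdh12 in RG was the other gene with a wide shift, at -0.55 ± 0.29 (95% interval -1.14 to 0.04, edgeR unadjusted p = 0.0671), and its libraries overlapped. The value was -0.23 without Ctl RG replicate 2 and -0.30 without Epi RG replicate 1, and it ranged from -0.74 to -0.23 as each library was left out.

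**Figure D4:**
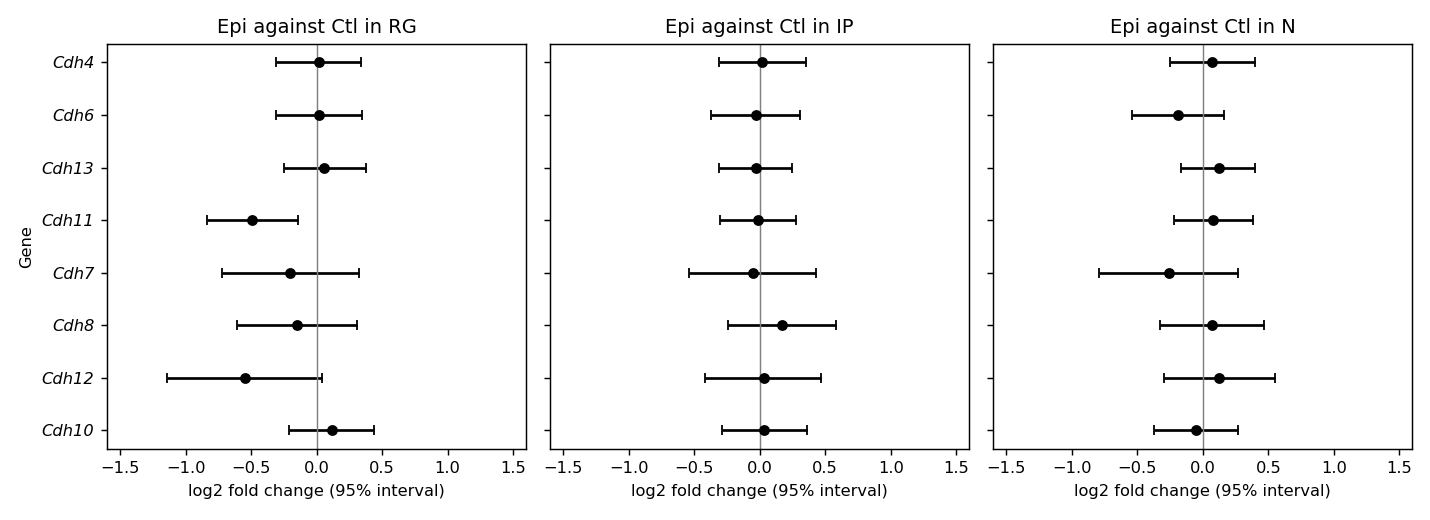
Log2 fold change (points) and 95% interval (bars) of the 8 cadherins between Epi and Ctl cultures in RG, IP and N. The interval of Cdh11 in RG lies left of 0, from -0.84 to -0.14, and all others cross 0.

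Across the 18 libraries, the log2 CPM of the cadherins fell into groups of like pattern. The values that follow are Pearson correlations given as descriptions, over 18 points that come from 3 populations and share libraries and depth. Cdh11 and Cdh13 had r = 0.98, as did Cdh8 and Cdh12. Cdh10 stood nearest to Cdh13 (r = 0.91), and Cdh7 to Cdh11 (r = 0.83). Cdh6 ran against Cdh8 (r = -0.91) and Cdh12 (r = -0.92), and Cdh4 against Cdh7 (r = -0.83). Neighbours on a chromosome were not always the closest in pattern: Cdh8 and Cdh11 lie 3.22 Mb apart with 0 protein-coding genes between them and had r = 0.72, while Cdh11 and Cdh13 are separated by 15.5 Mb and 182 protein-coding genes. Cdh10 and Cdh12 lie 1.44 Mb apart, also with 0 protein-coding genes between them, and had r = 0.84.

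Among 12556 genes whose log2 CPM averaged 1 or more, the genes most like each cadherin over the 18 libraries were as follows. For Cdh13 they were Sox5 (r = 0.998), a transcription factor of deep-layer and subplate neurons, Hspa12a and Scn2a. Sox5 averaged 76.1 CPM in RG, 1030 CPM in IP and 551 CPM in N (means over 6 libraries). For Cdh11 they were Gas7 (r = 0.996), Marchf4 and the receptor kinase gene Kit, and Kit averaged 4.23 CPM in RG, 94.2 CPM in IP and 27.4 CPM in N. For Cdh7 they were Bmp3 (r = 0.979), Ak5 and Prickle1, and Bmp3 averaged 1.70 CPM in RG, 15.2 CPM in IP and 1.74 CPM in N. For Cdh8 they were Inhba (r = 0.987), Phf21b and the ephrin receptor gene Epha3, and Epha3 averaged 14.4 CPM in RG, 199 CPM in IP and 497 CPM in N. Phf21b was also the gene most like Cdh12 (r = 0.988), followed by the sodium channel gene Scn1a and Frmd4b. For Cdh6 they were Actr3b (r = 0.981), Myo10 and Tox3, and for Cdh10 Gnb1 (r = 0.982), Serf1 and Dctn3. For Cdh4 they were Alcam (r = 0.934), an adhesion molecule of the immunoglobulin family, Sorl1 and Limch1.

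Other adhesion genes showed changes of both signs between the populations. Their counts stand beside the shares of all genes called, which were 41.3% for Ctl IP against Ctl RG, 10.3% for Ctl N against Ctl IP and 38.7% for Ctl N against Ctl RG, and in lists of 4 to 10 genes counts such as 2 of 4 or 4 of 7 lie near such shares. Of 7 other type II cadherins, 2 were higher and 2 lower in Ctl IP than in Ctl RG, with Cdh9 at a log2 fold change of 3.44 ± 0.39 and Cdh20 at -2.42 ± 0.39. The other 2 calls, Cdh18 and Cdh19, passed narrowly (edgeR adjusted p = 0.0454 and 0.047), and in Epi IP against Epi RG 1 of the 7 was higher and 1 lower. These genes stood at low levels. Cdh9 averaged 0.722 CPM in Ctl RG, 7.98 CPM in Ctl IP and 1.29 CPM in Ctl N. Cdh20 averaged 6.47 CPM in Ctl RG and 1.22 CPM in Ctl IP. Cdh18 averaged 0.503 and 1.25 CPM in Ctl RG and Ctl IP, and Cdh19 0.483 and 0.179 CPM. Of the same 7, 0 were higher and 2 lower in Ctl N than in Ctl IP, Cdh9 at -2.63 ± 0.38 and Cdh22 at -2.00 ± 0.30. Of 4 other type I cadherins, 2 were higher and 0 lower in Ctl IP than in Ctl RG. They were Cdh2 (N-cadherin, the main cadherin of the neuroepithelium), with 361 ± 97.3 CPM in Ctl IP and 233 ± 36.4 CPM in Ctl RG and a log2 fold change of 0.63 ± 0.16, and Cdh15 (M-cadherin). Cdh15 averaged only 1.58 CPM in Ctl IP and 0.448 CPM in Ctl RG. Of 8 catenins, 5 were higher and 2 lower in Ctl IP than in Ctl RG. Ctnna2, the alpha-catenin of neurons, was higher at 4.04 ± 0.13 and Jup, plakoglobin, at 3.78 ± 0.26, while Ctnna1, the alpha-catenin of epithelia, fell by 1.99 ± 0.17. Of 10 delta protocadherins, 5 were higher and 4 lower in Ctl IP than in Ctl RG, and 3 were higher and 2 lower in Ctl N than in Ctl IP, with Pcdh18 at 2.28 ± 0.17 and Pcdh19 at -1.63 ± 0.23. Of 9 Fat, Dachsous and Celsr cadherins, 5 were higher and 2 lower in Ctl IP than in Ctl RG, with Celsr3 at 5.06 ± 0.30 and Fat1 at -2.70 ± 0.17. Of the 5 genes of nectins and afadin, 2 were higher and 1 lower in Ctl IP than in Ctl RG, and Nectin3, a partner of nectin-1 at junctions, fell by 2.25 ± 0.12.

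In Ctl N against Ctl RG, 0 of the other type II cadherins were higher and 2 lower, and 0 of the other type I cadherins were called in either direction. In the same comparison 4 catenins were higher and 2 lower, 6 delta protocadherins higher and 3 lower, 5 Fat, Dachsous and Celsr cadherins higher and 2 lower, and 2 genes of the nectin list higher and 1 lower. In Epi cultures the counts for IP against RG were 2 higher and 0 lower for the other type I cadherins, 5 and 2 for the catenins, 5 and 5 for the delta protocadherins, 5 and 2 for the Fat, Dachsous and Celsr cadherins, and 3 and 1 for the nectin list. For Epi N against Epi RG they were 0 higher and 2 lower for the other type II cadherins, 0 and 0 for type I, 5 and 2 for the catenins, 6 and 3 for the delta protocadherins, 5 and 2 for the Fat, Dachsous and Celsr cadherins, and 2 and 1 for the nectin list. For Ctl N against Ctl IP they were 0 and 1 for type I, 0 and 3 for the catenins, 0 and 2 for the Fat, Dachsous and Celsr cadherins, and 0 and 1 for the nectin list. For Epi N against Epi IP they were 0 and 2 for type II, 0 and 0 for type I and 0 and 2 for the catenins. There the delta protocadherins had 3 and 2, the Fat, Dachsous and Celsr cadherins 0 and 2, and the nectin list 1 and 1. The median of the other type II cadherins in N against RG was 0.06 in Epi cultures and -0.34 in Ctl cultures. The medians of these lists between Ctl IP and Ctl RG were -0.27 for the other type II cadherins, 0.25 for the other type I cadherins, 1.05 for the catenins, 0.24 for the delta protocadherins, 0.59 for the Fat, Dachsous and Celsr cadherins and 0.41 for the nectin list, beside -0.06 over all genes tested. Between Epi and Ctl, edgeR called 0 genes of these lists in RG, IP and N, and 1 delta protocadherin in RG had an unadjusted p under 0.05.

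Several annotated genes overlap the spans of the cadherins, and the library protocol keeps no strand, so some cadherin counts may be affected. Overlap was judged by gene span and not by exon, so shared exons were not shown. Whether the cadherin rows gained or lost reads in this way was not tested. Cdh8 totalled 5737 counts over the 18 libraries, and the genes that overlap it include Gm15680 with 1740 counts and Gm45297 with 933, both on its strand. Cdh11 totalled 11124 counts beside 1017 for Gm45257, and Cdh12 totalled 4444 beside 474 for Acot10, which lies on the opposite strand. Where such genes share exons with a cadherin, their reads cannot be told apart. Cdh4 totalled 55919 counts beside 25 for its overlapping gene, Cdh13 totalled 181101 beside at most 283 for any of its own, and Cdh6, Cdh7 and Cdh10 had no overlapping gene in the table.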

How the data were processed

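RNA was measured by sequencing in 18 mouse libraries made by SmartSeq2, a full-length protocol without strand or molecular identifiers, after extraction with a kit for fixed embedded tissue, per the labels' protocols. The deposited table holds raw counts of reads by gene, 1 column per library, which the authors made with bcl2fastq 2.20.0, cutadapt 2.6 and featureCounts 2.0.1 on GRCm39, per the submitters' processing notes. No aligner or strand setting is named in the sources used here. The table had 55508 rows, of which 92 were spike-in sequences with 0 to 7 counts a library, which stayed out of totals and tests. Its strand and gene type headings were exchanged, as the values show, and were read by content.

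Groups came from sample titles and replicate numbers from descriptions. No libraries held identical counts, and the closest replicate pair differed by a chi-square of 14.3 per gene. In R 4.3.3, edgeR 4.0.16 (filterByExpr, TMM) fitted 6 group means to all 18 libraries, and comparisons were two-sided contrasts of that fit, with calls at a p under 0.05 after Benjamini-Hochberg adjustment over 29355 genes. CPM uses TMM factors. Fold changes carry SE, and intervals are 95%. CPM per kb used the union of exons of each gene in GENCODE vM39 on GRCm39. The fit was also run on simulated counts that held no effect of replicate number, so that run cannot speak for paired libraries.

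The members and gene lists were chosen with earlier results of these data known. All 8 cadherins are named whatever their outcome. For each list of other adhesion genes, up to 4 called genes with the smallest p were eligible as examples, and for each cadherin the 3 genes with the highest correlation of log2 CPM (prior count 2) are named. Of 9 catenins listed, 8 were analysed.

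Alternatives were RLE or upper-quartile factors, no filter, DESeq2 1.42.0, only the compared groups, a replicate block, either shared by all libraries or separate for each population, and leaving out single libraries. Whether replicate numbers pair libraries was checked on the 11210 genes whose log2 CPM averaged above 3, from deviations from group means, and the labels say nothing of it. Same-number correlations were at least 0.0946 in every pair of compared groups. In each pair the lowest of them lay above the highest correlation of libraries with different numbers. The margin was narrow for Ctl N with Ctl RG (0.0946 against 0.0766) and for Epi N with Epi RG (0.105 against 0.0602). It was also narrow for Epi IP with Ctl IP (0.16 against 0.118). In pairs of groups that were not compared, the lowest same-number correlation lay below the highest of different numbers. Only Epi IP with Ctl N kept the order (0.0987 against 0.087). For Ctl IP with Epi N, replicate 2 with replicate 2 had 0.00682, against 0.229 for Ctl IP replicate 2 with Epi N replicate 3. The numbers were taken to pair the libraries of compared groups, least clearly for replicate 2, and the main fit left this pairing out. Such correlations run across genes and not across independent replicates.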

Additional observations from a re-analysis of the deposited data

How the results depend on the processing

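No population call of a cadherin was lost or turned under any alternative run, and the number called stayed at its value in every one except Epi N against Epi RG, where 6 became 7 through Cdh4 with the replicate block (log2 fold change 0.32) and without Epi N replicate 3. With that block, which takes the replicate numbers as pairs, 4652 genes in place of 3035 were called between Ctl N and Ctl IP. Between Epi N and Epi IP it called 4917 in place of 3216. It changed no other cadherin call.

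Values near 0 that were not called changed sign under other settings, and the cause was not tested. With upper-quartile factors the log2 fold change of Cdh10 between Epi N and Epi IP was 0.06, and those between Epi and Ctl were -0.01 for Cdh12 in IP, -0.02 for Cdh4 in IP, -0.03 for Cdh4 in RG and -0.01 for Cdh6 in RG. With no filter Cdh11 in IP was at 0.02. When each library was left out in turn, Cdh10 ranged over -0.08 to 0.18 between Ctl N and Ctl IP and -0.13 to 0.06 between Epi N and Epi IP, and Cdh7 over -0.08 to 0.46 between Epi N and Epi RG. Between Epi and Ctl in RG, the ranges were -0.07 to 0.15 for Cdh13, -0.02 to 0.09 for Cdh4, -0.13 to 0.19 for Cdh6 and -0.27 to 0.03 for Cdh8. In IP they were -0.03 to 0.12 for Cdh10, -0.07 to 0.06 for Cdh11, -0.20 to 0.13 for Cdh12, -0.08 to 0.07 for Cdh13, -0.15 to 0.15 for Cdh4, -0.16 to 0.05 for Cdh6 and -0.21 to 0.10 for Cdh7. In N they were -0.20 to 0.07 for Cdh10, -0.08 to 0.25 for Cdh11, -0.02 to 0.23 for Cdh13, -0.12 to 0.24 for Cdh4 and -0.09 to 0.22 for Cdh8. For Cdh11 in RG the range was -0.60 to -0.40, with adjusted p = 1 throughout by edgeR. The fit of only the compared groups was not run for the mean of the 3 populations. Depth limits Cdh12 in RG most, at 21 to 44 counts a library. All other cadherins had at least 61 counts in every library.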
